A study of Mus musculus with 20 samples.

Results

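The transcripts of 10 neutrophil granule protein genes, Mpo, Ngp, Elane, Prtn3, Ctsg, Camp, Ltf, Lcn2, S100a8 and S100a9, were followed library by library in sorted mouse hematopoietic stem cells (HSCs), among the 49671 gene IDs counted. The genes come from a given list that was selected on the RNA counts of these same libraries, so their RNA values, calls included, are a description and support nothing further. The study compared HSCs of C57BL/6 mice aged 8 weeks that all carried the Vav-Cre transgene, which expresses Cre recombinase across the blood lineages and in part of the endothelium. Control mice were Kdm6b+/+ and Kdm6b-KO mice were Kdm6b fl/fl. The Kdm6b protein removes methyl groups from lysine 27 of histone H3. Cells were sorted as Lin- cKit+ Sca1+ CD150+ CD48-, and each of the 3 Control and 3 Kdm6b-KO RNA libraries came from marrow pooled over 3 male and 3 female mice, so a library is a pool and not 1 animal. Accessible DNA was read out by ATAC-seq, in which a transposase inserts adapters into open chromatin, from 10000 sorted HSCs in each of 3 libraries titled Control and 3 titled 6bKO. The genotype label of all 6 ATAC libraries reads wild-type, so these groups rest on the titles alone. No label ties an RNA replicate number to an ATAC replicate number. The 8 samples of chromatin immunoprecipitation and input were not analysed here.

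Neutrophils carry preformed antimicrobial proteins in granules that are filled in sequence as the cell matures in the marrow. Promyelocytes make the primary (azurophil) granule proteins, namely the peroxidase Mpo and the serine proteases Elane, Prtn3 and Ctsg. Later precursors make the specific granule proteins, among them lactoferrin (Ltf), lipocalin (Lcn2), the cathelicidin precursor (Camp) and Ngp, while the calcium-binding proteins S100a8 and S100a9 form the cytosolic complex calprotectin. In mouse and human the early genes are known to be driven by PU.1, C/EBP, RUNX and MYB factors. HSCs lie upstream of this programme.

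The start regions of 4 of these genes are shown because the results below turn on them. Mpo had an ATAC peak there in the Control libraries alone, Ltf had one in every library, and Elane and Prtn3 are neighbours on chromosome 10 whose RNA differed in the Kdm6b-KO libraries. Each line gives the 250 bases before the annotated start, 5′ to 3′ along the gene, from RefSeq (GRCm38.p6). All 4 lie on the plus strand, at chr11:87793534-87793783 for Mpo, chr10:79886062-79886311 for Elane, chr10:79879417-79879666 for Prtn3 and chr9:111019042-111019291 for Ltf. Capitals mark a PU.1 core (GAGGAAG, in Mpo, Elane and Prtn3), a MYB core (AACGG, in Elane and Prtn3) and a C/EBP core (TTGCNNAA on the other strand, in Ltf).
Mpo: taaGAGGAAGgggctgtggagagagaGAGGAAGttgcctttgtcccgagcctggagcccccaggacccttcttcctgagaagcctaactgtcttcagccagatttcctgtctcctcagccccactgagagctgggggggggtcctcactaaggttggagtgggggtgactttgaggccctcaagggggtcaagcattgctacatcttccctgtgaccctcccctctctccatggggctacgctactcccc
Elane: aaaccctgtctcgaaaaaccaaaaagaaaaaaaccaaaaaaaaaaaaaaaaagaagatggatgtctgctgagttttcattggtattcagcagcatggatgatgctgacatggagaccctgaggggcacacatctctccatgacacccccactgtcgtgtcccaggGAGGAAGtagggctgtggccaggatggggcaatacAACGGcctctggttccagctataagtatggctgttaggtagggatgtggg
Prtn3: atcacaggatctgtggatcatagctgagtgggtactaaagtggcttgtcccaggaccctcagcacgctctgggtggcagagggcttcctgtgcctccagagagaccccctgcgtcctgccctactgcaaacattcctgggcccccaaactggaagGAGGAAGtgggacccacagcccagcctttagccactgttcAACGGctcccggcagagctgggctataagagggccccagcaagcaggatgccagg
Ltf: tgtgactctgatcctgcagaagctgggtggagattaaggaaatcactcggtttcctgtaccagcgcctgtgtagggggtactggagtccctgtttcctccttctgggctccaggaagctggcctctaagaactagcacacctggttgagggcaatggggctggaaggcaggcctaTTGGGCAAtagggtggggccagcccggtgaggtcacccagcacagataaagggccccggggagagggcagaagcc

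Over the 10 genes, the PU.1 core was found on either strand in the windows of 6 (Mpo, Elane, Prtn3, Ctsg, Lcn2 and S100a8), and 10.6% of all 32851 RefSeq windows of the same length held it. The C/EBP core was found in 4 (Ngp, Ltf, Lcn2 and S100a9), against 9.56% of all windows. The MYB core lay 50 to 46 bases before the start of Elane and 55 to 51 bases before that of Prtn3, and 14.5% of all windows held it. The RUNX core (TGTGGT, 14.0% of windows) was found in Ctsg and S100a9. The letters of a TATA box (TATAAA, 12.4% of windows) lay 30 to 25 bases before the start of S100a8. In Ctsg the same letters lay on the other strand, 237 to 232 bases before the start, and are a match of letters alone. No match of a motif overlapped a match of another. These letters describe the windows and do not show that a factor bound there. Elane and Prtn3 thus shared both a MYB and a PU.1 core, the latter 85 to 79 bases before the start of Elane and 95 to 89 before that of Prtn3.

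The RNA libraries held 6793873, 8831086 and 13797890 assigned reads in Control 1 to 3 and 10930930, 8683106 and 19336121 in Kdm6b-KO 1 to 3, so that 3 reads were worth 0.155 to 0.442 CPM (counts scaled to TMM library sizes). HSC markers were present in every library. Mecom, a transcription factor of HSC maintenance, had 186.6 to 249.1 CPM, and the summed level of 12 HSC markers was 3467, 5285 and 4886 CPM in Control, beside 3427, 3754 and 3310 CPM in Kdm6b-KO. Whole-gene Kdm6b counts overlapped between the groups, at 92.0, 282.5 and 220.6 against 142.5, 202.1 and 191.3 CPM, and may include exons outside the deleted part. Klhl42, named after its values were seen, had 31.6 to 48.5 CPM in Control and 127.4 to 150.3 CPM in Kdm6b-KO. Its values did not overlap between the groups, as for 20.5% of all tested genes, in either direction. Since the gene was named for its values, nothing further is read from it.

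The summed level of the 10 granule genes was 3685, 1192 and 2126 CPM in Control 1, 2 and 3, beside 4333, 194.4 and 192.3 CPM in Kdm6b-KO 1, 2 and 3. Kdm6b-KO 1 was therefore the highest of the 6 libraries and Kdm6b-KO 2 and 3 the lowest, and the groups overlapped. As a share of all assigned reads the members made up 0.353%, 0.106% and 0.211% in Control, beside 0.454%, 0.0205% and 0.0201% in Kdm6b-KO. The 2 low libraries were the shallowest and the deepest of the Kdm6b-KO libraries. In bulk samples, fewer cells of a type and less RNA per cell cannot be told apart.

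**Figure D1:**
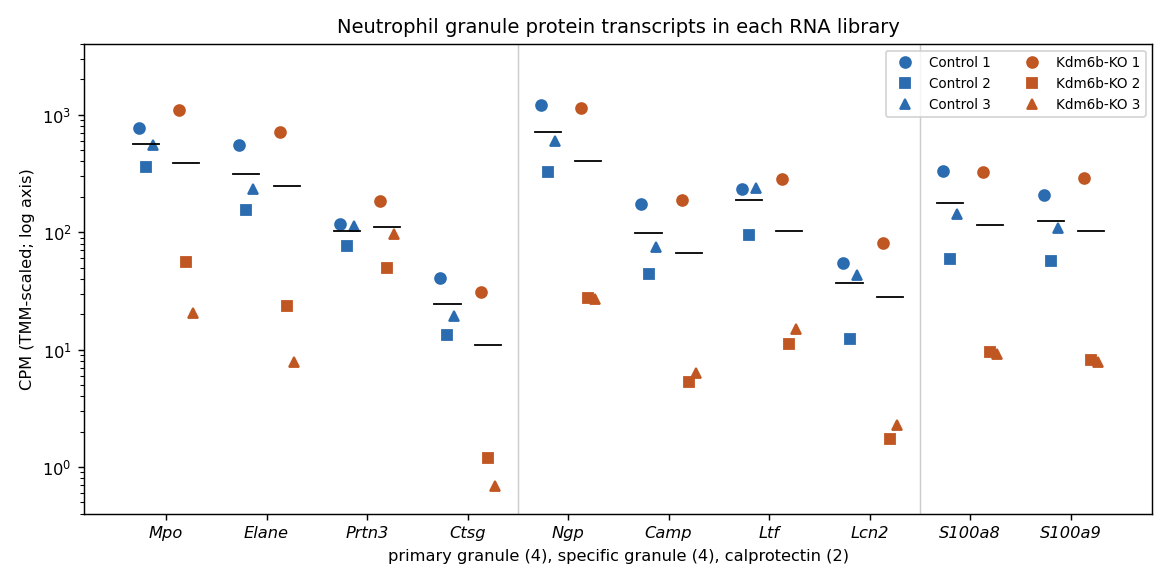
CPM of each of the 10 granule genes (log axis) in the 3 Control (blue) and 3 Kdm6b-KO (orange) RNA libraries, with a shape for each replicate and a bar at each group mean. For 9 genes Kdm6b-KO 1 lies within or above the Control values while Kdm6b-KO 2 and 3 lie far below them, and for Prtn3 the 6 libraries span 49.9 to 185.6 CPM.

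The primary granule genes, made first in the programme, held both the widest spread over the 6 libraries (Elane) and the narrowest (Prtn3). Mpo, the peroxidase that makes hypochlorous acid (ENSMUSG00000009350, chromosome 11, 87793784 to 87804412), had 772.8, 356.9 and 547.0 CPM in Control, beside 1094, 55.9 and 20.3 CPM in Kdm6b-KO. Kdm6b-KO 1 held 19.6 times the level of Kdm6b-KO 2 and 53.8 times that of Kdm6b-KO 3. Group means were 558.9 ± 208.2 and 390.1 ± 609.9 CPM (SD, n = 3 each), and the log2 fold change was -0.52 with an SE of 1.62. Mpo is the sole member on chromosome 11, which also carries Kdm6b.

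Elane, neutrophil elastase (ENSMUSG00000020125, chromosome 10, 79886312 to 79888216), had 552.0, 154.8 and 234.5 CPM in Control, beside 706.3, 23.6 and 7.77 CPM in Kdm6b-KO. Its Kdm6b-KO values ran from above every Control library to far below the lowest, and Kdm6b-KO 1 and 3 stood 90.9-fold apart. The means were 313.8 ± 210.1 and 245.9 ± 398.8 CPM (SD, n = 3 each), for a log2 fold change of -0.35 (SE 1.83). Ctsg, the protease cathepsin G (ENSMUSG00000040314, chromosome 14, 56099885 to 56102574), had 40.5, 13.3 and 19.4 CPM in Control, beside 30.7, 1.20 and 0.693 CPM in Kdm6b-KO. The 2 low values rest on 11 and 14 reads, and Kdm6b-KO 1 lay inside the Control range.

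Prtn3, proteinase 3 (ENSMUSG00000057729, chromosome 10, 79879667 to 79883174), departed from the other 9. It had 116.4, 76.2 and 112.9 CPM in Control, beside 185.6, 49.9 and 96.0 CPM in Kdm6b-KO. Kdm6b-KO 1 was again the highest library, but Kdm6b-KO 3 lay between the Control values and Kdm6b-KO 2 at 0.655 of the lowest of them. The means were 101.8 ± 22.2 and 110.5 ± 69.0 CPM (SD, n = 3 each), for a log2 fold change of 0.12 (SE 0.45), the one positive value among the 10.

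Ratios of counts within a library do not depend on its depth, and they show the departure directly. Mpo had 6.64, 4.68 and 4.85 reads per read of Prtn3 in Control, against 5.90, 1.12 and 0.212 in Kdm6b-KO. Elane, the neighbour of Prtn3, had 4.74, 2.03 and 2.08 reads per read of Prtn3 in Control, against 3.81, 0.474 and 0.0809 in Kdm6b-KO. Both ratios in Kdm6b-KO 1 thus lay within the Control range, and both fell outside it in Kdm6b-KO 2 and 3, furthest in Kdm6b-KO 3. Elane per Mpo, by contrast, stayed between 0.382 and 0.714 in all 6 libraries.

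Among the specific granule genes, Ngp, a cathelicidin-related granule protein (ENSMUSG00000032484, chromosome 9, 110419808 to 110423012), had 1205, 323.8 and 601.1 CPM in Control, beside 1151, 27.7 and 26.9 CPM in Kdm6b-KO. Here Control 1 was the highest library, just above Kdm6b-KO 1. The means were 709.9 ± 450.4 and 401.9 ± 648.9 CPM (SD, n = 3 each), for a log2 fold change of -0.82 (SE 1.77). Camp, the precursor of the antimicrobial cathelicidin peptide (ENSMUSG00000038357, chromosome 9, 109847377 to 109849456), had 173.4, 43.8 and 75.2 CPM in Control, beside 189.1, 5.34 and 6.28 CPM in Kdm6b-KO. Its highest library was Kdm6b-KO 1, and the 2 low libraries lay close together at 0.122 and 0.143 of the lowest Control value.

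Ltf, the iron-binding lactoferrin (ENSMUSG00000032496, chromosome 9, 111019292 to 111042766), had 232.1, 94.9 and 239.7 CPM in Control, beside 280.9, 11.2 and 15.1 CPM in Kdm6b-KO. Lcn2, which binds bacterial siderophores (ENSMUSG00000026822, chromosome 2, 32384637 to 32387739), had 55.0, 12.3 and 43.5 CPM in Control, beside 80.1, 1.74 and 2.28 CPM in Kdm6b-KO. For Ltf and Lcn2 alike, Control 2 was the lowest Control library and Kdm6b-KO 2 the lowest of all 6. Log2 fold changes were -0.54 (SE 1.66) for Camp, -0.89 (SE 1.48) for Ltf and -0.40 (SE 1.71) for Lcn2.

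The calprotectin subunits kept to a narrow ratio across libraries. S100a8 (ENSMUSG00000056054, chromosome 3, 90669071 to 90670034) had 330.7, 59.3 and 143.4 CPM in Control, beside 325.2, 9.59 and 9.10 CPM in Kdm6b-KO. S100a9 (ENSMUSG00000056071, chromosome 3, 90692630 to 90695721) had 207.5, 56.8 and 109.2 CPM in Control, beside 289.6, 8.17 and 7.86 CPM in Kdm6b-KO. S100a8 counts per S100a9 count stayed between 1.04 and 1.59 in the 6 libraries. Log2 fold changes were -0.63 (SE 1.74) for S100a8 and -0.29 (SE 1.69) for S100a9, and that of Ctsg was -1.17 (SE 1.59).

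Compared gene by gene, Kdm6b-KO 1 was the highest of the 6 libraries for 7 members and Control 1 for 3, against 13.1% and 21.7% of all tested genes. Kdm6b-KO 1 was below the lowest Control library for 0 of 10, against 24.8% of tested genes. Kdm6b-KO 2 was below it for 10 and Kdm6b-KO 3 for 9, against 24.1% and 29.4%. A level more than 4-fold below the lowest Control library was found for 9 of 10 members in Kdm6b-KO 2, where 0.705% of all tested genes met it, and for 9 of 10 in Kdm6b-KO 3, where 1.97% did. In Kdm6b-KO 1 it was 0 of 10, against 0.27% of tested genes, and each Control library set against the other 2 also gave 0 of 10, against 1.98%, 0.619% and 0.125%. The same contrast chose the genes, so nothing further is read from these counts. The exception in both low libraries was Prtn3. For the other 9, Kdm6b-KO 2 and 3 held 0.0502 to 0.185 of the lowest Control level, and Kdm6b-KO 1 held 18.6 to 90.9 times their level.

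The Control libraries also differed among themselves, in the same order for most members. Control 2 was the lowest Control library for all 10, as for 32.7% of all tested genes. Control 1 was the highest Control library for 9, with Ltf highest in Control 3. The highest Control value stood between 1.53 (Prtn3) and 5.57 times (S100a8) above the lowest. The coefficient of variation spanned 21.8% to 78.1% in Control, beside 62.4% to 162% in Kdm6b-KO, lowest for Prtn3 in both groups. Over the 6 libraries, each member's log2(CPM + 1) had a Pearson r of 0.974 to 0.998 with the mean of the other 9, except Prtn3 with 0.740. These values describe 6 libraries of unequal depth.

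The proportions of the granule classes differed between the libraries. Of the members' summed CPM, primary granule genes made up 40.2%, 50.4% and 43.0% in Control, 46.5% in Kdm6b-KO 1, and 67.2% and 64.9% in Kdm6b-KO 2 and 3. Specific granule genes made up 45.2%, 39.8% and 45.1% in Control, 39.3% in Kdm6b-KO 1, and 23.7% and 26.3% in Kdm6b-KO 2 and 3. These are shares of reads, not of molecules. Prtn3 counts among the primary genes and gave 458 of 1784 member reads in Kdm6b-KO 2 and 1940 of 3887 in Kdm6b-KO 3, beside 2123 of 49572 in Kdm6b-KO 1 and 758 of 23994, 600 of 9383 and 1545 of 29096 in Control. The high primary share in Kdm6b-KO 3 therefore rests on Prtn3 and is not a trait of the primary genes as a class. Mpo per Ngp, a ratio of a primary to a specific gene without Prtn3, was 0.642, 1.10 and 0.910 in Control. In Kdm6b-KO 1, 2 and 3 it was 0.950, 2.02 and 0.756, outside the Control range in Kdm6b-KO 2 alone. Calprotectin genes made up 9.74% to 14.6% in Control, beside 8.82% to 14.2% in Kdm6b-KO.

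The calls that follow rest on the same RNA values that chose the members, so they describe these libraries and are no test of the members. With all 6 libraries, 0 of the 10 members were called by edgeR at an adjusted p under 0.05, against 0.461% of the 15185 genes tested (70 genes, 0.244% higher and 0.217% lower). Scaled by library totals, 70% of 100 calls were higher, against 52.9% here, and the median of all genes moved to 0.15. DESeq2 and limma-voom also called 0 members, where they called 3.2% and 0.362% of genes. So did edgeR with library totals (0.659% of genes), DESeq2 size factors (0.474%), no filter on low counts (1.68%) or a replicate block (0.58%). Leaving out Control 1, 2 or 3 gave 0 members against 3.22%, 0.285% and 1.05% of genes, and leaving out Kdm6b-KO 2 or 3 gave 0 against 0.151% and 0.129%. The median log2 fold change of the members was -0.53, with 9 of 10 negative, beside -0.00125 and 50.1% negative over all tested genes. No member's groups were free of overlap, which held for 20.5% of tested genes. Without Kdm6b-KO 1, the library in which they were high, the median was -4.11 and 6 of 10 members were called lower (Ctsg, Lcn2, Ltf, Mpo, Ngp and S100a9), where 0.424% of 15315 genes were lower and 0.633% were called in all. This restates the library values given above and nothing is read from it. Without Kdm6b-KO 2 it was -0.00489, without Kdm6b-KO 3 it was 0.02, and without Control 1 it was 0.07. Without Control 2 and 3 it was -0.85 and -0.59. With limma-voom it was -2.30 and all 10 were negative.

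Further genes of the granule programme were split by stage. Other primary granule genes had 8 of 10 tested, with 0 called higher and 0 called lower by edgeR and a median log2 fold change of 0.10. Their summed level was 2446, 1670 and 1961 CPM in Control, beside 2605, 1865 and 1989 CPM in Kdm6b-KO, so that Kdm6b-KO 2 and 3 lay inside the Control range. The 2 most abundant were Srgn, the granule proteoglycan serglycin, with 1127, 693.0 and 900.4 against 1261, 921.7 and 854.4 CPM, and the lysozyme gene Lyz2 with 396.2, 239.0 and 303.7 against 427.6, 250.7 and 346.6 CPM. Neither had Kdm6b-KO 2 or 3 below the lowest Control library. Ms4a3, a marker of granulocyte and monocyte progenitors in the same list, had 58.8, 22.2 and 30.4 CPM in Control, beside 68.5, 3.70 and 2.77 CPM in Kdm6b-KO, the pattern of the members.

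Of 28 specific, gelatinase and late neutrophil genes, 19 were tested and 0 were called in either direction. Of the 19, 15 were negative, and the median log2 fold change was -0.59. The 2 most abundant, Anxa1 (annexin) and Cyba (an oxidase subunit that other cells also make), had 272.2 to 407.1 and 102.9 to 130.5 CPM in Control, beside 225.0 to 405.8 and 111.7 to 165.5 CPM in Kdm6b-KO. In Control 2, 2 of the 19 lay more than 4-fold below the lowest other Control library, against 0.619% of all tested genes, and 0 did in Control 1 or 3. More than 4-fold below the lowest Control level lay 7 of the 19 in Kdm6b-KO 2 and 10 in Kdm6b-KO 3, and 0 in Kdm6b-KO 1, against 0.705%, 1.97% and 0.27% of all tested genes. Chil3, a chitinase-like protein of neutrophil precursors, was among them with 113.2, 45.2 and 77.4 CPM in Control, beside 146.8, 2.72 and 6.78 CPM in Kdm6b-KO. So was Cybb, the catalytic subunit of the phagocyte oxidase, with 47.1, 21.3 and 26.4 against 48.9, 2.62 and 0.594 CPM. Some genes of the mature neutrophil were scarce in every library. Ly6g, a surface antigen of granulocytes, reached 0.877 CPM at most and had 0 reads in Kdm6b-KO 2 and 3, Mmp9 reached 1.02 CPM at most, and Stfa2l1 had 0 reads in all 6 libraries.

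All 15 granulocyte-monocyte progenitor genes were tested, with 0 called, 10 negative and a median log2 fold change of -0.29. Calr and Cd34, the 2 most abundant, had 284.2 to 432.8 and 296.0 to 364.0 CPM in Control and 385.6 to 428.4 and 321.8 to 467.7 CPM in Kdm6b-KO. Fcnb, a ficolin of granulocyte progenitors, had 65.0, 14.4 and 20.5 CPM in Control, beside 87.9, 1.96 and 2.92 CPM in Kdm6b-KO. Ly6c2, a surface antigen of myeloid progenitors, had 18.3, 4.07 and 14.9 against 42.7, 0.436 and 0.297 CPM. Fcnb and Ly6c2 followed the members, Calr and Cd34 did not. Gene by gene, 10 of the 15 progenitor genes were highest in Kdm6b-KO 1, as were 7 of the 10 members and 13.1% of all tested genes. In Kdm6b-KO 2 and 3, 10 and 12 of the 15 lay below the lowest Control library, where 24.1% and 29.4% of all tested genes did. More than 4-fold below it lay 4 and 4 of the 15, against 0.705% and 1.97% of all tested genes. Without Kdm6b-KO 1, 13 of 54 tested genes of the 4 granulocyte lists were called lower and 0 higher, where 0.424% of all genes were lower, among them Chil3, Cybb, Cd177, Hp, Ms4a3 and Ly6c2. Fcnb was not among the 13. Chil3, Cybb, Cd177, Fcnb, Ly6c2 and the mature neutrophil markers were named after their values were seen.

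Regulators and receptors of the lineage were set beside the granule genes. Of 15 regulators and receptors 13 were tested, with 0 called, 5 negative and a median log2 fold change of 0.10. Myb and Runx1, the most abundant, had 428.6 to 640.1 and 76.0 to 135.3 CPM in Control and 357.5 to 495.8 and 99.2 to 122.7 CPM in Kdm6b-KO. Spi1, which encodes PU.1, had 13.8, 17.8 and 19.7 CPM in Control, beside 23.0, 18.5 and 13.7 CPM in Kdm6b-KO. Gfi1, a repressor needed for neutrophil maturation, had 11.2, 4.45 and 3.21 against 14.8, 8.17 and 11.5 CPM, above Control 2 and 3 in each Kdm6b-KO library. Cebpe, the C/EBP factor of specific granule genes, was near the depth limit with 1.08, 1.14 and 0.804 against 2.36, 0.109 and 0.495 CPM, highest in Kdm6b-KO 1 and lowest in Kdm6b-KO 2 and 3 like most members. Spi1, Myb and Runx1 did not have that order. Spi1, Gfi1 and Cebpe were named after their values were seen. The difference between these lists and the members was not tested.

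**Figure D2:**
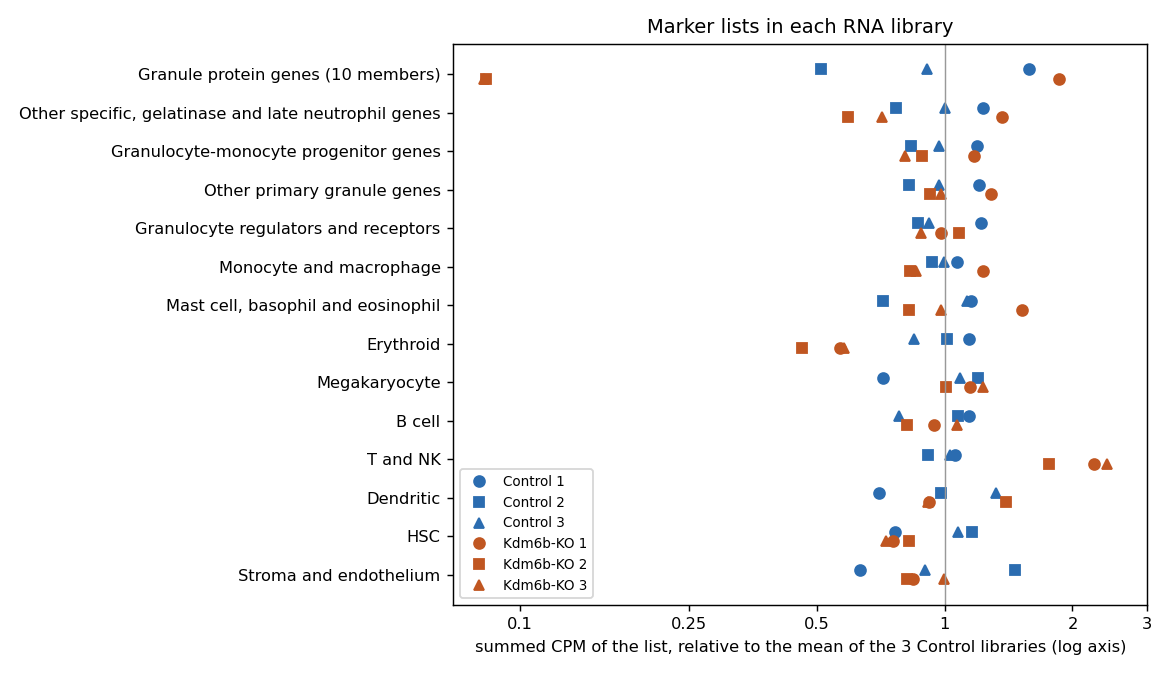
Summed CPM of each marker list in each RNA library, divided by the mean of the 3 Control libraries (log axis), with Control in blue and Kdm6b-KO in orange and a shape for each replicate. The 10 granule genes stand at 0.0833 and 0.0824 of the Control mean in Kdm6b-KO 2 and 3 and at 1.86 in Kdm6b-KO 1, while the sums of the progenitor, regulator and HSC lists, which weigh abundant genes such as Calr and Cd34 most, lie between 0.728 and 1.17 in these 3 libraries.

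Markers of other cells moved in part with the members. Monocyte and macrophage markers summed to 142.2, 124.1 and 132.9 CPM in Control, beside 163.5, 110.3 and 113.6 CPM in Kdm6b-KO, again highest in Kdm6b-KO 1 and lowest in Kdm6b-KO 2 and 3, in a narrower range. Mast cell, basophil and eosinophil markers summed to 435.6, 270.0 and 427.3 against 573.8, 311.0 and 369.7 CPM, led by Gata2, which HSCs also express. Prg2, an eosinophil granule protein, had 3.84, 1.65 and 62.5 CPM in Control, beside 141.0, 1.85 and 2.13 CPM in Kdm6b-KO, named after its values were seen and high in Control 3 and Kdm6b-KO 1 alone. Erythroid markers, nearly all of them Car2, summed to 11187, 9901 and 8291 CPM in Control, beside 5545, 4527 and 5684 CPM in Kdm6b-KO and did not set Kdm6b-KO 1 apart. Cd48, the antigen selected against in the sort, had 16.7, 6.99 and 10.7 CPM in Control, beside 14.2, 10.1 and 4.60 CPM in Kdm6b-KO. The integrin gene Itgam had 10.1, 3.18 and 4.53 against 6.99, 4.14 and 4.75 CPM. Tested were 10 of 11 genes listed for monocytes, 6 of 8 for mast cells, basophils and eosinophils and 11 of 12 for erythroid cells. Of these edgeR called 0. More than 4-fold below the lowest Control library lay 2 and 1 of the 10 monocyte genes in Kdm6b-KO 2 and 3. So did 2 and 3 of the 6 mast cell, basophil and eosinophil genes and 2 and 2 of the 11 erythroid genes. Kdm6b-KO 1 had 0, 1 and 0 such genes in these lists. Of all tested genes, 0.27%, 0.705% and 1.97% met it in Kdm6b-KO 1, 2 and 3. The part of these markers in the granule result was not tested.

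Among 10280 genes with a symbol and a mean of at least 5 CPM, 10 had the profile most like the mean log2(CPM + 1) of the members over the 6 libraries, with a Pearson r of 0.984 to 0.997. In order they were Ms4a3, Wfdc21, Hp, Hdc, Clec12a, Cldn13, Ccdc59, Cst7, Atp8b4 and Commd8. The profile was drawn from the RNA values that chose the members, so nothing further is read from this likeness. Hp, haptoglobin, had 72.8, 18.7 and 32.4 CPM in Control, beside 75.3, 3.49 and 3.12 CPM in Kdm6b-KO. Cldn13, a claudin outside the lists, had 10.8, 3.18 and 7.74 against 9.44, 0.436 and 0.495 CPM. Likeness of shape did not require a large change. Ccdc59 ran from 89.0 to 105.7 CPM and Commd8 from 88.4 to 112.6 CPM over the same libraries.

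The genes were selected on the RNA counts, though with earlier results of these data known. Whether the ATAC peaks bore on that choice is not known. The 6 peak lists held 47450, 44739 and 62125 peaks in Control and 63682, 53692 and 69729 peaks in the libraries titled 6bKO. Overlapping peaks of different libraries (1 bp or more) were joined into single regions, of which 147 lay in or within 50 kb of a member. Of these 27 (18.4%) had a peak in all 6 libraries, against 13% of all regions, and 72 (49.0%) in 1 library, against 59.9%. The libraries held 50, 59 and 91 such regions in Control and 49, 57 and 77 in those titled 6bKO. Group means were 66.7 ± 21.5 and 61.0 ± 14.4 regions (SD, n = 3 each; exact two-sided permutation test, p = 0.6), and the groups overlapped. Without Control 3 the difference turned to 6.5 regions more in the libraries titled 6bKO, and without titled 6bKO 1 to 0.333 more.

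Because the number of peaks called differs between libraries, the share of each library's peaks near the members was also compared. It was 0.110%, 0.136% and 0.146% in Control and 0.0785%, 0.112% and 0.112% in the libraries titled 6bKO. The means were 0.131% ± 0.0191 and 0.101% ± 0.0192 (SD, n = 3 each; exact two-sided permutation test, p = 0.3). Within 10 kb of the genes the shares did not overlap, with means of 0.0430% ± 0.0127 and 0.0228% ± 0.00275 (p = 0.1 in the same exact test, n = 3 each), the smallest p that 3 against 3 libraries allow.

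The start sites were compared next, in an analysis added after the peaks had been seen. A peak in the window from 250 bases before to 50 after the start was found for 4, 7 and 9 of the 10 members in Control 1, 2 and 3, and for 1, 1 and 3 in the libraries titled 6bKO. The groups did not overlap, with means of 6.67 ± 2.52 and 1.67 ± 1.15 windows (SD, n = 3 each; exact two-sided permutation test, p = 0.1, the smallest possible). As the comparison was made after the peaks had been seen, this p is a description and tests nothing further. Over 10476 tested genes with a window, 71%, 76.4% and 82.8% had a peak in Control and 71.6%, 79.4% and 83.9% in the libraries titled 6bKO. Among all genes the libraries titled 6bKO therefore did not have fewer start-site peaks. With 44739 peaks kept in each library, those of smallest q, the members' numbers were 4, 7 and 8 in Control and 1, 1 and 1 in the libraries titled 6bKO. With peaks of a −log10 q of at least 5 alone the groups touched at 3 windows, and with the start base in place of the window they touched at 1.

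**Figure D3:**
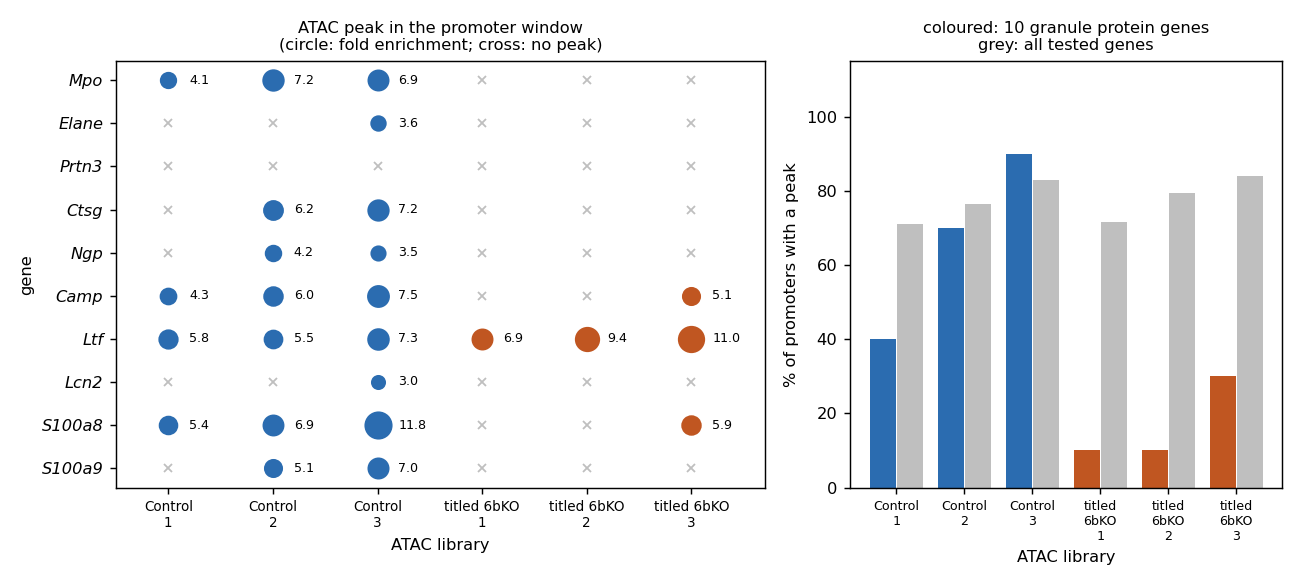
Left, ATAC peaks in the start-site window of each member by library, with circle area and number giving the authors' fold enrichment and a cross where no peak was listed, and right, the percent of the 10 members (coloured) and of all tested genes (grey) with such a peak. The members lie at 40%, 70% and 90% in Control and at 10%, 10% and 30% in the libraries titled 6bKO, while all tested genes lie at 71% to 83.9%.

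Gene by gene, 8 of the 10 windows had a peak in more Control libraries than libraries titled 6bKO, against 8.53% of tested genes, and 0 had the reverse, against 11.7%. Mpo had one in all 3 Control libraries and in no library titled 6bKO, a pattern of 9 of the 10476 windows (0.0859%). The fold enrichment that the authors' peak caller gave to the Mpo peak was 4.08, 7.22 and 6.94 in Control 1, 2 and 3. With Ngp, Ctsg and S100a9, Mpo made up the 4 members with a peak in at least 2 Control libraries and in none titled 6bKO, against 0.611% of tested genes. Ctsg had fold enrichments of 6.17 and 7.15 in Control 2 and 3, S100a9 had 5.08 and 6.97 and Ngp 4.17 and 3.50. Elane (3.63) and Lcn2 (2.99) had a peak in Control 3 alone.

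S100a8 and Camp had the peak in all 3 Control libraries and in titled 6bKO 3. For S100a8 the fold enrichment was 5.37, 6.90 and 11.8 in Control and 5.93 in titled 6bKO 3, and for Camp 4.32, 5.96 and 7.55 in Control and 5.08. Ltf was the one member with a start-site peak in every library, as for 62.3% of tested genes and 75.9% of those with a Control mean of at least 100 CPM. Its fold enrichment was 5.81, 5.47 and 7.32 in Control and 6.92, 9.36 and 11.0 in the libraries titled 6bKO, where the median over all peaks was higher too (6.51 to 7.34, against 5.05 to 5.65 in Control). The peaks of 5 libraries, all but Control 2, cover the C/EBP core printed above. Prtn3 had no start-site peak in any library, as for 12.8% of tested genes. A region whose near end lies 1222 bases before the start of Prtn3 (chr10:79877725-79878445) had a peak in all 6 libraries, with fold enrichments of 4.27, 6.91 and 6.98 in Control and 8.88, 9.10 and 8.99 in those titled 6bKO.

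**Figure D4:**
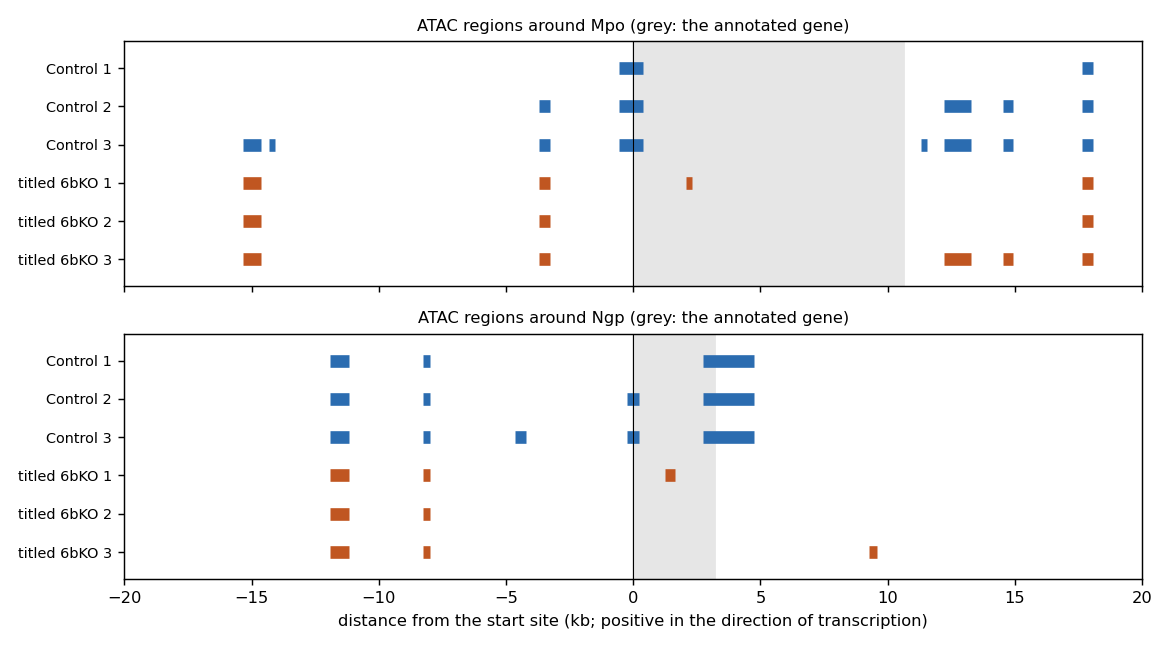
Merged ATAC regions within 20 kb of the start of Mpo and of Ngp, drawn in each library that had a peak there (Control blue, titled 6bKO orange), against distance from the start in kb, with the annotated gene in grey. The Mpo start region and the Ngp 3′ region have peaks in the 3 Control libraries and in no library titled 6bKO, while some flanking regions are shared by both groups.

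Beside the start regions, the region near each member with a peak in the most libraries was taken, and among equals that of highest mean fold enrichment. This gave 8 regions in all, since neighbouring members share them. Of the 8, 6 had a peak in all 6 libraries, which this choice favours and from which nothing is read. Mpo had a region 43889 bases before its start (chr11:87749178-87749895, in no annotated gene) with fold enrichments of 15.2, 14.1 and 15.9 in Control and 17.8, 17.7 and 18.9 in the libraries titled 6bKO. A region downstream of Ltf (chr9:111046176-111046619, in no annotated gene) had 18.1, 15.6 and 16.6 against 19.3, 25.0 and 26.0. Near Camp a region overlapping Cdc25a (chr9:109875043-109875827) had 8.88, 13.9 and 19.7 against 12.8, 20.9 and 21.0. The other 3 overlapped Klhl18 near Ngp (mean fold enrichment 12.3), Slc25a25 near Lcn2 (11.1) and Med16 near Elane and Prtn3 (11.1). S100a8 and S100a9 shared a region in 5 libraries (chr3:90709839-90710430), absent from titled 6bKO 1, and for Ctsg no region reached more than 2 libraries.

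Regions with a peak in all 3 Control libraries and in none titled 6bKO numbered 2 of the 147, against 0.288% of all regions. They were the Mpo start region (chr11:87793238-87794174), which also overlaps the predicted gene Gm34064, and a region across the 3′ end of Ngp (chr9:110422539-110424551) with fold enrichments of 5.19, 4.75 and 5.28. The reverse pattern was met by 1 region downstream of Ltf (chr9:111056077-111056392), with fold enrichments of 4.31, 5.21 and 3.28 in the libraries titled 6bKO, against 1.3% of all regions. Start-site peaks of other lists overlapped between the groups. Granulocyte-monocyte progenitor genes had 6, 6 and 12 of 13 windows with a peak in Control and 4, 6 and 8 in the libraries titled 6bKO, other late neutrophil genes 3, 5 and 12 of 23 against 2, 5 and 7, and regulators 6, 9 and 9 of 10 in each group. HSC markers had 4, 6 and 6 of 10 against 4, 7 and 6. By gene, 6 of the 13 progenitor windows and 7 of the 23 late neutrophil windows had a peak in more Control libraries than libraries titled 6bKO, and 2 and 2 had the reverse, where 8.53% and 11.7% of all tested genes did. For regulators and for HSC markers it was 2 of 10 in each direction. The difference between the members and these lists was not tested. The libraries in which the RNA was low and those titled 6bKO cannot be matched to each other, since no label links them.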

How the data were processed

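RNA was counted in 6 and ATAC peaks in 6 of the 20 samples. Deposited values for RNA are raw counts of reads in Ensembl genes (mm10). The submitters' processing notes name Partek 6.6, HTSeq 0.8.0, STAR 2.0.4 and Subread featureCounts 1.4.5 without their roles. Annotation release and strand setting: not given in the sources used here. Reads of antisense or overlapping genes cannot be told apart. The 5 closing lines of unassigned reads, 80.3% to 83.5% of each file, were left out. Symbols matched 49326 of 49671 IDs. The labels call the RNA libraries biological replicates.

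In the deposited peak lists, made with cutadapt 1.16, BWA 0.7.16a and MACS2 per the submitters' processing notes, the authors' fold enrichment is a ratio, p and q are −log10 values and the peak score was not used. These are each peak's own values and only describe or filter peaks. ATAC read depth is unknown here.

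The test was that of edgeR 4.0.16 (R 4.3.3, filterByExpr, TMM, robust glmQLFit and glmQLFTest, genotype alone, Benjamini-Hochberg over 15185 genes, threshold 0.05). All 10 members passed the filter. DESeq2 1.42.0 and limma 3.58.1 were alternatives. On simulated counts for this comparison (14842 genes), 28.6% of genes with a planted log2 change of 1 and 79.8% with one of 2 were recovered. The changed genes were drawn at random, so these rates do not hold for genes as variable as the members besides Prtn3 (SE 1.48 to 1.83). No 2 RNA libraries of the same group agreed within sampling noise. ATAC values were compared with exact permutation tests over all 20 label assignments (scipy 1.17.1). All 10 members matched a RefSeq promoter.

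The members and lists were chosen with earlier results of these data known. The text names the members, up to 2 called genes or the 2 most abundant genes of the granulocyte lists, and the 10 genes most alike. For ATAC it names each member's start region and the other region with a peak in the most libraries, ties going to the highest mean fold enrichment. Motifs, the label check and the start-site comparison were chosen after seeing the data. Members' levels are not compared between genes, since no transcript lengths were used.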

Additional observations from a re-analysis of the deposited data

How the results depend on the processing

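Over 12 alternatives for RNA, the number of members called was 0 in each except without Kdm6b-KO replicate 1 (leave-one-out range 0 to 6). Of 120 refitted member log2 fold changes, 10 moved by more than the spread between replicates, 9 of them without Kdm6b-KO replicate 1 and 1 (Ctsg, -3.06) with limma-voom. The number of genes called was 467 with DESeq2, 576 without a filter on low counts, and 20 to 519 with each library left out in turn. Calls in the 4 granulocyte lists numbered 0 with all libraries, 2 with DESeq2 (Csf2rb and Plac8), 1 with library totals (Csf2rb), 4 without a filter, and 0 to 13 with each library left out.

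Same-numbered RNA libraries had deviations that correlated at 0.0324, 0.161 and -0.127, so the numbers did not pair them. With the replicate block 88 genes, 0 members and 1 list gene (Plac8) were called, and the members' median was -2.28. Paired sign flips gave p = 0.25 for each ATAC result, the smallest possible with 3 pairs (exact test). The causes were not tested.

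The ATAC region difference of -5.67 turned to 1.33 with a 100 kb window and ranged from -14 to 6.5 with each library left out. The difference in start-site windows stayed between -6.33 and -3.83 and that in the share of peaks between -0.0407 and -0.019 percentage points over the alternatives run, with no p below 0.1. With 3 libraries per group these exact tests cannot go below 0.1, and the members' lowest counts (11 to 16 reads) carry the widest counting error.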
